A study of Mus musculus with 2 samples.

Results

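The genes of the nucleosome remodelling and deacetylase (NuRD) complex were examined in LSK cells of nondiabetic and diabetic mice. The set holds 10 genes, chosen by name as subunits of the complex: Chd3, Chd4, Mta1, Mta2, Mta3, Mbd2, Mbd3, Gatad2a, Gatad2b and Rbbp4. Of 28319 named probes for 21360 genes, 17 belonged to these 10 genes, and all 17 were kept. LSK cells are bone marrow cells without lineage markers that carry Sca-1 and c-kit, and they include blood stem cells and early progenitors. Gene expression was measured on 1 array for nondiabetic and 1 array for streptozotocin (STZ)-induced diabetic mice, each with RNA pooled from 3 C57BL/6J mice. The sample labels give female mice, and the study's text describes males. The nondiabetic mice of the study received citrate buffer and the diabetic mice STZ, a toxin of insulin-producing cells, by tail vein, and the array labels give neither dose nor age. STZ and the diabetes that follows it cannot be told apart in this design.

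NuRD joins a pair of activities in a single assembly, an ATP-driven motor that moves nucleosomes and the histone deacetylases HDAC1 and HDAC2. CHD3 or CHD4 is the motor, MTA proteins are the scaffold that holds the deacetylases, and RBBP4 and RBBP7 bind histone tails. MBD2 or MBD3, which do not occur in the same complex, sets the link to chromatin, and GATAD2A or GATAD2B bridges the MBD protein to the motor. In blood formation the complex is known for work with Ikaros, GATA1 with its partner FOG1, and other lineage factors, and Chd4 is needed for the upkeep of blood stem cells in mice.

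The question was how the genes for the partners of the deacetylases compare between the arrays, beside the HDAC genes that the study examined. By the brightest probe of each gene, 0 of 10 NuRD genes were higher in diabetic LSK cells by 2-fold or more and 0 of 10 were lower by 2-fold or more. Over all 15192 named genes with a ratio or a bound, these shares were 11.0% and 10.1%. Over the 13467 whose brightest probe was well above background on both arrays, as it was for all 10 NuRD genes, they were 9.44% and 8.44%, and among the genes of the brightest class of probes (measured probes were divided into 3 intensity classes of equal size) 8.01% passed 2-fold in either direction. The 10 NuRD genes are too few for a count of 0 to be set apart from these shares. The median log2 ratio of diabetic over nondiabetic was 0.02 for the 10 genes and 0.02 for 15192 named genes. Of the 10 genes, 5 had a ratio above 0, led by Gatad2b at 0.63 and Chd4 at 0.62, and 5 had a ratio below 0, with Mta3 at -0.88 the farthest. Because each condition has 1 array, no difference was tested, and the counts describe these arrays only. In bulk RNA of this kind, a smaller share of cells that express a gene and less of its RNA per cell cannot be told apart.

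**Figure D1:**
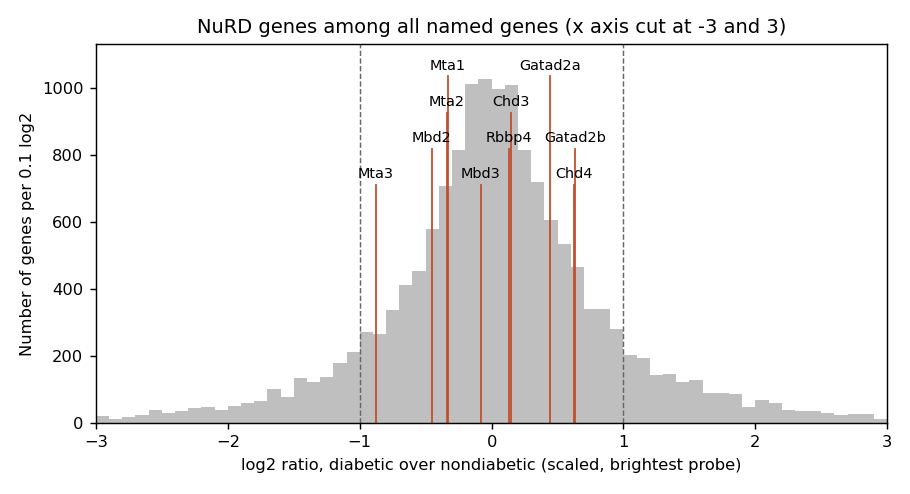
Histogram of the log2 ratio of diabetic over nondiabetic for named genes by their brightest probe, counted per 0.1 log2, with the 10 NuRD genes as red lines and 2-fold as dashed lines. All 10 lie within 2-fold, from -0.88 for Mta3 to 0.63 for Gatad2b.

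Intensities are given in the scanner's units before scaling, and log2 ratios after each array was scaled to its own 75th percentile, which was 168.2 on the nondiabetic and 182.5 on the diabetic array. An error after a ratio is the error that the scanner software assigned to the spots, carried to the log2 ratio. It covers neither mice nor cell sorts nor amplification. Each of the 17 probes had 1 spot per array. For probes printed at least 5 times, the spots of a probe differed in log2 ratio with a median SD of 0.065 in the brightest class, 0.127 in the middle class and 0.255 in the dimmest class.

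Chd3 and Chd4 encode the alternative motors of the complex. Chd4 (probe A_55_P2020373) read 1559 for nondiabetic and 2604 for diabetic cells. Its log2 ratio was 0.62 ± 0.20 (scanner error), which is 1.54-fold higher and exceeds the ratio of 80.4% of named genes. Chd3 (probe A_55_P2061386) had intensities of 497 and 598, a log2 ratio of 0.15 ± 0.20 that lies within the scanner error of 0. Both motors therefore had ratios above 0, and only that of Chd4 exceeded its scanner error. Each of these genes had 1 probe.

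Gatad2a and Gatad2b encode the p66 proteins that tie the MBD subunit to the motor. Gatad2b (probe A_52_P494115) read 247.9 for nondiabetic and 417 for diabetic cells, a log2 ratio of 0.63 ± 0.20. The brightest probe of Gatad2a (A_66_P111773) read 2957 and 4365, with a log2 ratio of 0.44 ± 0.20. Its remaining probes gave other values. One (A_51_P129149), at 154.9 and 365, was 2.17-fold higher with a log2 ratio of 1.12 ± 0.20. The other (A_55_P2179834), at 279 and 227.6, had a log2 ratio of -0.41 ± 0.20. All 3 probes are assigned to 1 transcript, NM_145596, so the range of 1.53 log2 units between them lies within a single transcript record.

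The MTA proteins form the dimeric scaffold to which HDAC1 and HDAC2 attach, and the brightest probes of all 3 genes had log2 ratios below 0. Mta2 (probe A_51_P164207) read 3304 for nondiabetic and 2831 for diabetic cells, a log2 ratio of -0.34 ± 0.20. Mta1 (probe A_55_P2415372) had 310 and 268, a log2 ratio of -0.33 ± 0.20. Both were about 1.3-fold lower, and both ratios exceeded the scanner error by less than its own size. Mta3, whose protein is known as a partner of the repressor BCL6 in B cells, was the member with the lowest ratio by brightest probe. Its brightest probe (A_55_P2022094) had 118.1 and 69.9, a log2 ratio of -0.88 ± 0.21, and 12.3% of named genes had a lower ratio.

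The probes of Mta3 are assigned to 3 different transcript records and ran in different directions. The probe of NM_001171053 is the brightest one above. The probe of NM_001171054 (A_55_P1971347) had intensities of 55.4 and 68.7, a log2 ratio of 0.19 ± 0.22. The probe of XM_006523511 (A_66_P114585) had 16.2 and 37.8, a log2 ratio of 1.105 ± 0.28. The highest and lowest ratios lay 1.98 log2 units apart, the widest gap among members whose probes all had a ratio. The sign of the Mta3 difference thus depended on the probe, and its mean over the 3 probes was 0.14.

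Mbd2 encodes the subunit that binds methylated CpG, and Mbd3 the alternative subunit that has largely lost that binding. Both probes of Mbd2 were lower in diabetic LSK cells. The brighter one (A_66_P133043) read 1823 for nondiabetic and 1445 for diabetic cells, a log2 ratio of -0.45 ± 0.20. The other (A_55_P2036526) had 1126 and 541, a log2 ratio of -1.17 ± 0.20, which is 2.26-fold lower. Mbd2 was the only NuRD gene with several probes measured on both arrays whose ratios all had the same sign. The brightest probe of Mbd3 (A_66_P127024) had 677 and 693, a log2 ratio of -0.08 ± 0.20 that lies within the scanner error of 0. Its other probe (A_55_P1960873) read 21.5 for nondiabetic cells and 3.69, a value not well above background, for diabetic cells, which makes it at least 2.32-fold lower. For such a bound the dim value was replaced by 10.06, the lowest intensity well above background on the diabetic array.

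Rbbp4 encodes a histone-binding protein that NuRD shares with the Sin3 and Polycomb complexes. Its brightest probe (A_51_P307325) had 4497 and 5340, a log2 ratio of 0.13 ± 0.20. Its other probe (A_52_P424767), dim at 38.9 and 30.3, had a log2 ratio of -0.48 ± 0.25. The first lies within the scanner error of 0 and the second does not.

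**Figure D2:**
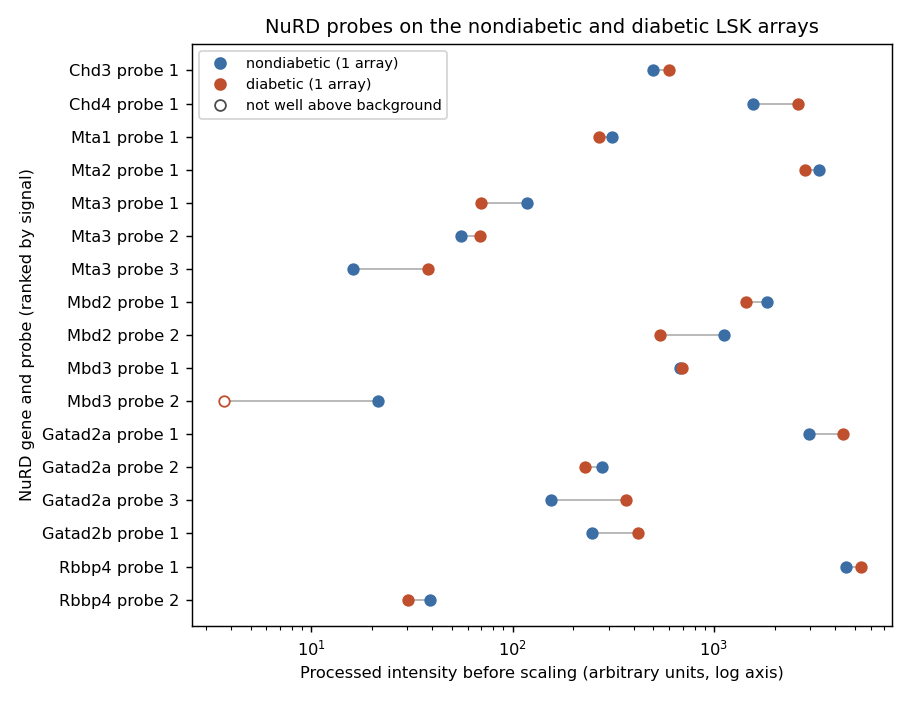
Processed intensity before scaling, on a log axis, of all 17 NuRD probes on the nondiabetic (blue) and diabetic (red) array, with open points for values not well above background. The open point is the second probe of Mbd3 at 3.69, and the widest pairs with both points filled belong to the dimmest probes of Mta3, Gatad2a and Mbd2.

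Counted by probe, 2 of 17 NuRD probes passed 2-fold upwards, those of Gatad2a and Mta3, and 2 passed it downwards, those of Mbd2 and Mbd3. Over 37791 probes with a ratio or bound, 11.2% passed it upwards and 11.2% downwards, so the NuRD counts lie near the background. None of the 4 was the brightest probe of its gene. The median log2 ratio over the 17 probes was -0.08, against -0.01 over all probes.

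**Figure D3:**
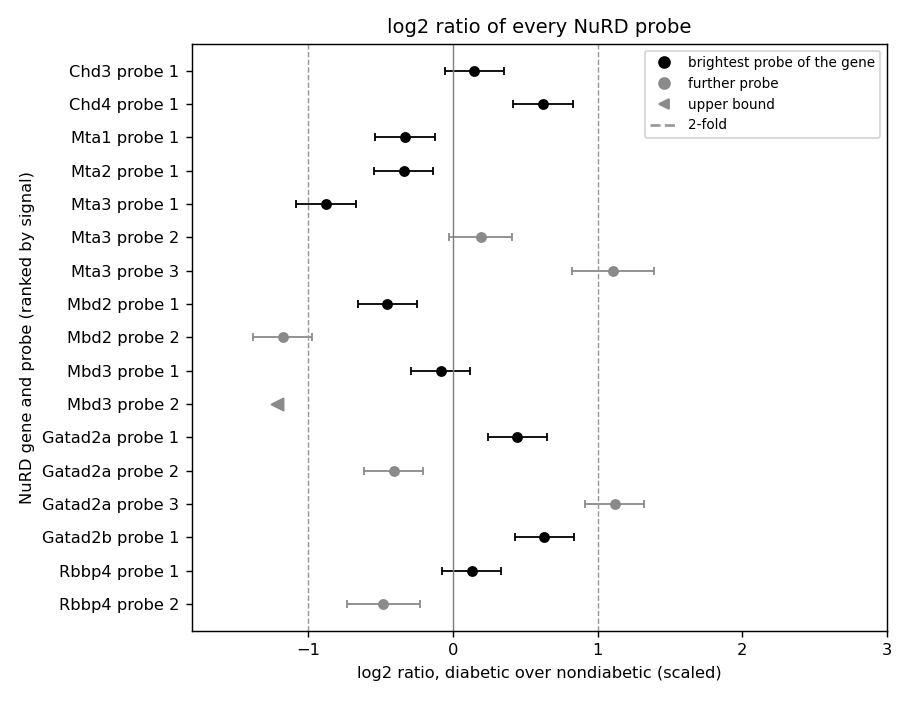
Scaled log2 ratio of diabetic over nondiabetic for each NuRD probe, with the brightest probe of a gene in black, further probes in grey, the scanner error as bars, an arrowhead for an upper bound and dashed lines at 2-fold. The brightest probes stay within 2-fold, and the 4 probes past it belong to Mta3, Mbd2, Mbd3 and Gatad2a.

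The disagreement between probes was examined over the whole array. Of 5 NuRD genes with several probes, 3 had probes of opposite sign, Mta3, Gatad2a and Rbbp4, and 3 had probes more than 2-fold apart, Mta3, Gatad2a and Mbd3. Among 3846 named genes with several probes that had a ratio or bound, 49.2% had probes of opposite sign and 40.1% probes more than 2-fold apart. The NuRD genes are too few to be set apart from these shares. Chd3, Chd4, Mta1, Mta2 and Gatad2b had 1 probe each, so nothing on these arrays checks their ratios. Probe sequences were not used here, and hybridisation of a probe to related genes was not tested.

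By brightest probe, the other core and family genes gave 0 of 5 past 2-fold in either direction, with a median log2 ratio of -0.32. Together, 0 of 15 genes of the complex and its families passed 2-fold. Over named genes well above background on both arrays, as these 15 were, 9.44% passed it upwards and 8.44% downwards. The list is short, and its count was not tested against these shares. The deacetylase gene Hdac2, measured on 8 spots, had intensities of 196.7 and 110.6 and a log2 ratio of -0.95, with an SD of 0.09 between spots and a range from -1.09 to -0.85. By brightest probe, Hdac2 thus came nearest to 2-fold among the 15 genes, on the probe with the most spots. Hdac1 had log2 ratios of -0.32, 0.42 and 0.34 on its 3 probes. From these arrays, the study's text counts Hdac1 among the HDACs markedly higher in diabetic LSK cells and Hdac2 among the lower ones. That text names no probes, and the Hdac1 probes here did not share a direction. Rbbp7, the close relative of Rbbp4, had 0.24 on its brightest probe and -0.33 on the other. Cdk2ap1, which encodes a small subunit of the complex, had -0.21 and 0.89, and Chd5, the motor best known from the nervous system, had -0.53 ± 0.26 at low intensities of 39.3 and 29.5. Of these 5 genes, all 3 with several probes had probes of opposite sign.

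Of 15 genes for factors that bind or recruit the complex, 1 passed 2-fold upwards, 1 passed it downwards, 10 had ratios within 2-fold, 1 (Sall1) had only a lower bound and 2 had no ratio, with a median log2 ratio of 0.02. Over all named genes with a ratio or a bound, 11.0% passed upwards and 10.1% downwards, so these counts lie near the background. Zmynd8, which encodes a chromatin reader that recruits NuRD to damaged DNA, was the higher one. Its brightest probe (A_55_P2146483) read 497 for nondiabetic and 1847 for diabetic cells, a log2 ratio of 1.78 ± 0.20, while its other probes had 0.10 and -0.13. The probe at 0.10 (A_52_P214927) read 795 and 922, so it was the brighter of the pair on the nondiabetic array. The choice of the brightest Zmynd8 probe thus rested on its diabetic value. Zfp592, whose protein is a partner of ZMYND8, was the lower one. Its brightest probe (A_55_P1996469) had 6096 and 3258, a log2 ratio of -1.02 ± 0.20, and the other had -0.44 ± 0.26. Zfp592 lay at the 2-fold limit, and under median centring (-0.999), normexp (-0.95) and the mean over probes (-0.73) it did not pass. Zmynd8 did not pass as the mean over probes (0.58).

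Among the recruiting factors of blood cells, Zfpm1, which encodes the GATA1 partner FOG1, had ratios below 0 on all 3 probes. They were -0.36, -0.43 and -1.18, with intensities of 259 and 219.7 on the brightest. Ikzf1, which encodes Ikaros, had -0.42 and -0.13 on its probes, and Ikzf3, its lymphoid relative Aiolos, had 0.02. Bcl11a, a repressor of fetal globin genes, had 0.08 and 0.67. Bcl6 had 0.07, and Sall4, a stem cell factor, had -0.07 on the only one of its probes well above background. Kdm1a, the gene of the histone demethylase LSD1, had 0.44, and Zfp687, whose protein joins ZMYND8 and ZFP592, had 0.47. Pwwp2a and Pwwp2b, readers of histone methylation that bind part of the complex, had -0.87 ± 0.23 and 0.00 ± 0.23. Sall1 was well above background in diabetic LSK cells only, at 12.3, which makes it at least 1.11-fold higher. Bcl11b and Zfpm2 were not well above background on either array.

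The Sin3 and CoREST complexes, which also hold histone deacetylases, are set beside NuRD, as values that were not tested against each other. The Sin3 complex had a median log2 ratio of 0.20 over 10 genes with a ratio, and 1 of them passed 2-fold upwards and 0 downwards. The CoREST complex had a median of 0.65 over 6 genes, and 1 passed 2-fold upwards and 0 downwards. This median and the count upwards are lower limits, because Hmg20b was well above background on the diabetic array only and entered with its bound of 0.87. The genes past 2-fold were Suds3 at 3.84 on its only probe in Sin3 and Rcor1 at 1.56 in CoREST. Over all named genes with a ratio or a bound, 11.0% passed upwards and 10.1% downwards, and lists this short cannot be set apart from these shares. The second probe of Rcor1, at 91.9 and 92.5, had a log2 ratio of -0.11, so its probes did not share a direction, and their mean of 0.73 did not pass 2-fold. By brightest probe the NuRD genes covered the span from -0.88 for Mta3 to 0.63 for Gatad2b, which is their own range. Of named genes, 12.3% had a ratio lower than that of Mta3 and 80.7% one lower than that of Gatad2b. Genes outside the span are thus common on these arrays, and both of the other complexes held at least 1. Kdm1a counts both as a NuRD partner and in CoREST, and Rbbp4, Hdac1 and Hdac2, which several of these complexes share, were counted with NuRD only.

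**Figure D4:**
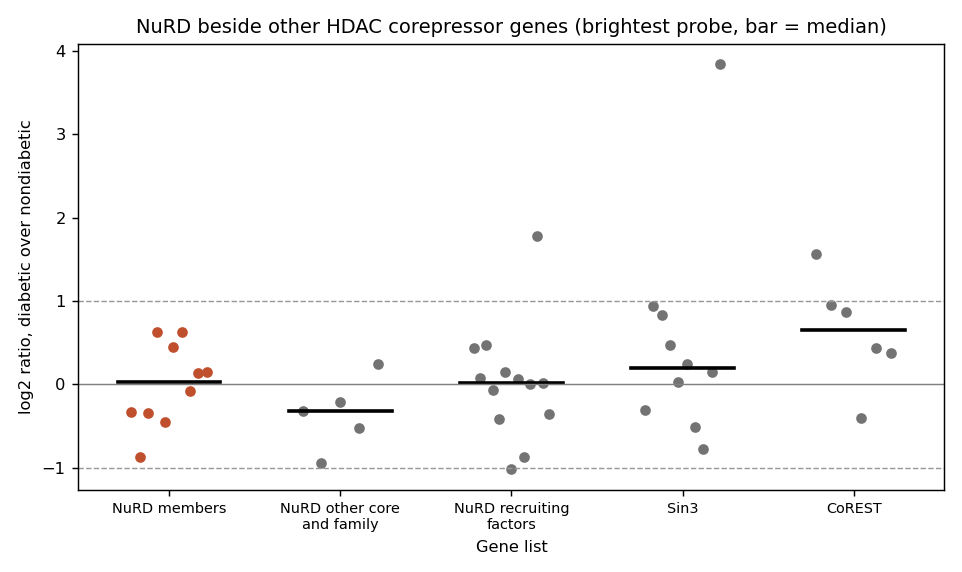
Scaled log2 ratio of diabetic over nondiabetic by brightest probe (bounds included) for the 10 NuRD genes in red and for 4 other gene lists in grey, with the median of each list as a bar and dashed lines at 2-fold. The NuRD genes lie around 0 with a median of 0.02, and the CoREST list has its median at 0.65, a lower limit.

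Promoters are shown for 4 members with 1 probe each, Chd4 and Gatad2b with the 2 highest ratios and Mta1 and Mta2 with ratios below 0. They were chosen after the ratios were seen and are examples that do not stand for the other members. RefSeq promoters of build GRCm38.p6 were matched by symbol for 7 of the 10 genes with 10 start sites, and the 250 bases before the first start are printed 5′ to 3′ with each CG in capitals.
Chd4, upstream chr6:125095731-125095980, + strand: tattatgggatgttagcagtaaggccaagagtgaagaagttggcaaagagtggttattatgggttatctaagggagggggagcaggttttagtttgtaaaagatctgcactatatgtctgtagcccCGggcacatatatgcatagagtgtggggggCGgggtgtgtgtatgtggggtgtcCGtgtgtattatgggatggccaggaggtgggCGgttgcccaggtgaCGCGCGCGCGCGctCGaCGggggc
Gatad2b, upstream chr3:90292931-90293180, + strand: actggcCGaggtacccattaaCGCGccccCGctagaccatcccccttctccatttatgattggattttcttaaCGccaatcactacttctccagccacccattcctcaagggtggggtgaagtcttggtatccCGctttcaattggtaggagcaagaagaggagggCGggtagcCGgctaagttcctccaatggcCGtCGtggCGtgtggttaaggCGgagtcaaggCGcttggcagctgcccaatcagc
Mta1, upstream chr12:113098028-113098277, + strand: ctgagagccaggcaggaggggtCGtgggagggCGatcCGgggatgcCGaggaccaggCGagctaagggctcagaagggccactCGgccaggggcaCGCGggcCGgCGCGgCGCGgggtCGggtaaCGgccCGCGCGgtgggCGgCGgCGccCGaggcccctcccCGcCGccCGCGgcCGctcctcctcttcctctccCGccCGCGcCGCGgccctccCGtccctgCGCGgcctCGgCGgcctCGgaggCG
Mta2, upstream chr19:8941670-8941919, + strand: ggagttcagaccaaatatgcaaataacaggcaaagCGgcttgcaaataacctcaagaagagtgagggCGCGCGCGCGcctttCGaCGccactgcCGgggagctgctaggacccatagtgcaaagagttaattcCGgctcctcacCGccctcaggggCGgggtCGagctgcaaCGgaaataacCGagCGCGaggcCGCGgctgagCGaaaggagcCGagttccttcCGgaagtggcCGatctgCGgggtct

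The Chd4 stretch held 12 CG, that of Gatad2b 13, that of Mta2 24 and that of Mta1 39. Among the stretches not printed, that of Rbbp4 held 30, those of Gatad2a 18 and 20, that of Mbd3 14, and those of the second starts of Chd4 and Gatad2b 23 and 14. Genes with ratios above 0 thus had 12 to 30 CG and genes with ratios below 0 had 14 to 39, and these ranges overlap. Over all 10 start sites the count ran from 12 to 39 with a median of 19, against a median of 6 over 32851 RefSeq promoters of the same length. The 10 stretches come from 7 genes. Those of Chd4 share the bases from 125095913 to 125095980, so CG and motifs there count in both. The GC box GGGCGG, which overlaps CG, was found on either strand in 10 of 10 member stretches and in 32.7% of all promoters. The CCAAT box, searched as CCAAT, was found in 6 and in 33.8% of all, CCGGAA, the core of ETS factor sites, in 2 and in 12.0%, and TATAAA in 1 and in 12.4%. The stretches with CCGGAA were that of Mta2 and that of the second start of Gatad2a, which lie on either side of 0 by ratio. A match is a run of letters and not a site shown to be bound.

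Marker genes were read to check the label of the cells. Of 9 genes of LSK cells and early progenitors, 9 were well above background on both arrays. Kit, the c-kit of the gate, had 4635 and 4735 (log2 ratio -0.09) and Ly6a, the gene of Sca-1, had 475 and 701 (0.44). The median log2 ratio of these 9 genes was 0.22, and Mecom, a stem cell factor, was the only one past 2-fold by its brightest probe, at -1.20, while its second probe had -0.16. Ptprc, with 244.8 and 135.6 on its only probe, lay just short of 2-fold at -0.97. By brightest probe 6 of the 9 had ratios above 0 and 3 below 0. The erythroid list had 5 of 5 reported genes well above background on both arrays. Its intensities summed to 3247 on the nondiabetic and 6962 on the diabetic array, mostly from Hba-a1 with 1984 and 4967 (1.21). Of its 5 genes, 2 had ratios above 0, the globin genes Hba-a1 and Hbb-bt (0.75), and 3 had ratios below 0, Klf1 (-0.30), Epor (-0.20) and Car1 (-0.24), so that the median of the list was -0.20. The granulocyte and monocyte list had 6 of 7 genes well above background on both arrays, with Ltf dim, and sums of 8640 and 7269, led by Csf1r (-0.34). In this list 3 genes had ratios above 0, Elane (0.50), Camp (0.56) and S100a9 (0.10), and 3 had ratios below 0, with S100a8 at -1.48 the only one past 2-fold by its brightest probe. The megakaryocyte list had 4 of 4 genes well above background and sums of 406 and 701, led by Pf4 with a log2 ratio of 0.75. Gp9, at low intensities of 14.4 and 44.9, was the only one of them past 2-fold, with a log2 ratio of 1.52. The B cell list had 3 of 4 genes well above background, with Ebf1 dim, and sums of 111 and 214, led by Cd79a at 1.51. The T and NK cell list had 3 of 4, with Cd8a dim, and sums of 4510 and 3807, led by Nkg7. By brightest probe its 3 genes had ratios below 0, Cd3e (-0.38), Cd4 (-0.05) and Nkg7 (-0.47), while the second probes of Cd4 and Nkg7 had 0.30 and 0.87. The stroma and endothelium list had 2 of 5 genes well above background on each array, with Col1a1 and Cdh5 dim on both, and sums of 875 and 877, nearly all from 1 spot of Kdr, whose other probe, with 10 spots, was dim on both arrays. The megakaryocyte and B cell sums were thus higher on the diabetic array, with ratios above 0 by brightest probe for 4 of 4 and 3 of 3 genes that had one. The T and NK cell sum was lower with 3 of 3 below 0, the granulocyte and monocyte sum was lower with genes on both sides of 0, and the erythroid sum was higher through its globin genes while its other 3 genes had ratios below 0. The part of these cells in the NuRD ratios was not tested.

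The NuRD ratios were recomputed in 10 other ways. Not all of these could move a gene. Those that treat dim probes, bounds or outlier spots otherwise left every value by brightest probe unchanged. The authors' table and median centring shifted all genes alike, and the mean over probes could act only on the 5 genes with several probes. The signs of 8 of the 10 genes were the same throughout. Mta3 and Rbbp4 turned sign when the ratio was averaged over the probes of the gene, to 0.14 and -0.17. No value of a NuRD gene was past 2-fold under the 10. The mean over the probes of Mbd3, -0.65, holds a bound and is itself an upper limit, so it leaves unsettled whether that mean is past 2-fold, and the dim probe had -2.66 when its value was kept as measured.

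**Figure D5:**
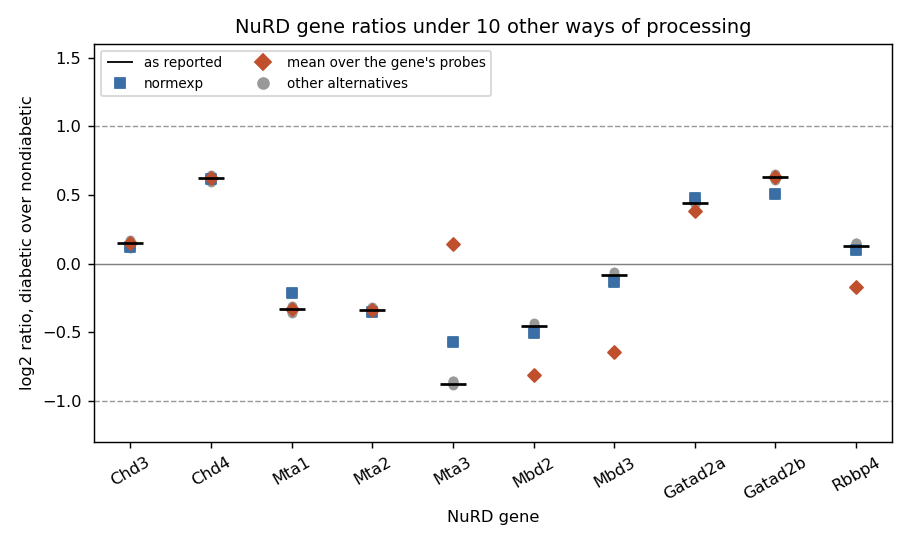
Scaled log2 ratio of diabetic over nondiabetic for the 10 NuRD genes as reported (black bar), under normexp background correction (blue squares), as the mean over the gene's probes (red diamonds) and under 8 other alternatives (grey), with dashed lines at 2-fold. All values lie within 2-fold, where the red diamond of Mbd3 is an upper limit, and the red diamonds of Mta3 and Rbbp4 lie across 0 from the bars.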

How the data were processed

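LSK cells of nondiabetic and STZ-induced diabetic mice were measured on 1-colour Agilent arrays, 1 per condition. The scanner output that the authors deposited came from Agilent Feature Extraction 11.5.1.1, and its processed intensities had been corrected for background within the array and not normalized between arrays. The software also flagged each spot as well above background or not. A second table of intensities deposited by the authors equalled the scanner values times 1 constant per array (log2 factors 3.48 and 3.35). Saturated spots numbered 0.

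Intensities were taken to log2, each array's 75th percentile was subtracted, 314 of 59305 non-control spots with an outlier flag on either array were dropped, and spots of a probe were averaged. Probes were named by transcript accession through a RefSeq table of GRCm38.p6. Every probe of the 10 genes is given, and the brightest one by mean log2 signal represents the gene. A probe well above background on 1 array has a bound where its value there, after scaling, exceeded the one set for the dim array, and otherwise, as on neither array, no ratio. Genes are named if they belong to the 10 genes or the partner list, and other corepressor genes where they passed 2-fold (Hmg20b was added after its values were seen). The members and lists were chosen with earlier results of these data known. A further corepressor list and 1 erythroid marker are not reported here. No test was made, and the number of arrays limits the precision. The alternatives were normexp (offset 50), quantile normalization, median centring, loess (span 0.4), keeping dim probes, leaving out bounds, the authors' table, a floor, outlier spots kept and the mean over probes. The steps were tested on simulated data. Python 3.11.15 with numpy 2.4.6 and pandas 2.3.3, and R 4.3.3 with limma 3.58.1, were used.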

Additional observations from a re-analysis of the deposited data

How the results depend on the processing

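Over the 10 alternatives, the count of NuRD genes past 2-fold stayed at 0 in both directions, where the count downwards as means over probes is a lower limit because the mean of Mbd3 holds a bound. Normexp background correction, run on the median spot intensity, put the NuRD probes past 2-fold upwards at 0 and those past it downwards at 1, and the cause was not tested. Without bounds, 1 probe passed 2-fold downwards. Over all probes, normexp put 3.31% past 2-fold upwards and 3.36% downwards. The medians over the genes and the probes moved by less than the spot SD of the middle intensity class under each alternative. Of the values of single genes, 93 of 100 moved by less than the spot SD of the intensity class of the gene's brightest probe. The other 7 were Mta3 (-0.57), Mta1 (-0.21) and Gatad2b (0.51) under normexp and Mbd2 (-0.81), Mbd3 (-0.65, with a bound), Mta3 and Rbbp4 as means over probes. Much of the count of 93 was fixed in advance. Keeping dim probes, leaving out bounds, the floor and keeping outlier spots left every gene's value as it was. The authors' table and median centring shifted all genes alike by less than any spot SD. Means over probes could not change genes with a single probe. The cause of the differences between probes was not tested. With 1 array a condition, no replicate could be left out. No paired analysis was possible because there is 1 array a condition and nothing was tested. Low signal limits Bcl11b and Zfpm2, which have no ratio.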
